A study of Drosophila melanogaster with 2 samples.

Results

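Aminoacyl-tRNA synthetases join each amino acid to its tRNA, and so set which residue the ribosome places at each codon. Cytosol and mitochondria translate separately, and both sets of enzymes are encoded in the nucleus. In flies the genes carry a three-letter amino acid code followed by RS, with the suffix -m for the mitochondrial enzyme. The 35 genes described here are every gene on the chromosome arms that codes for protein and has a symbol of this form, out of 13945 protein-coding genes there. Of these, 20 carry RS alone and are called cytoplasmic, and 15 carry RS-m and are called mitochondrial. The split rests on symbols alone. The annotation names no RS-m gene for glutamine, glycine, histidine, lysine or threonine, and in humans 1 gene supplies both compartments for glycine and for lysine.

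The readout is the genomic binding of CG2129, a protein with C2H2 zinc fingers, in Drosophila melanogaster. Whole embryos of 0 to 4 h came from a transgenic strain with an insertion that makes CG2129 fused to eGFP, and chromatin sheared to 200 to 800 bp was precipitated with an anti-GFP antibody. The study has 1 group with 2 biological replicates and no second condition. The labels do not say what drives the transgene or whether untagged CG2129 was present, and pull-down without the fusion protein was not analysed here. Whole embryos mix many cell types and stages. Values are therefore compared between genes. A gene is called bound when a peak summit of the thresholded list made from both replicates pooled lay within 500 bp of an annotated transcription start site (TSS) of that gene. That list keeps peaks past an irreproducible discovery rate (IDR) of 0.01, an estimate of how many of the kept peaks would fail to recur in a second ranking. The signal of a peak is the value written by the authors' peak caller, on a scale that the files do not state, so it ranks peaks within a list and its ratios have no known unit.

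The promoters that carry the main results are shown first, with TATCGAT, its longer form TATCGATA (the DRE, bound by the factor DREF), AGTGTGACC (the core of the site of M1BP, another promoter factor) and CAGCNCT (part of core promoter motif 7) in capitals wherever they occur on either strand. Each sequence is the Release 6 genome in the direction of transcription of the synthetase gene, around the summit or, for IleRS, directly upstream of its TSS. All bases lie outside annotated exons. GluProRS (chr3R:23958392-23958511, minus strand) had the strongest summit of the family and holds none of the 4 motifs. TrpRS (chr3R:9266916-9267018, minus strand) had a summit almost on top of a DRE. AlaRS (chr2L:8381765-8381820, minus strand) is shown as the whole stretch between its TSS and the 3′ end of CG13392, which lies on the same strand. AspRS-m (chr2L:16827001-16827077, plus strand) was the only bound mitochondrial enzyme, and beta-PheRS (chr3R:24252680-24252741, minus strand) has the M1BP core. IleRS (chr3L:22288565-22288664, plus strand) has a DRE and was not bound in the pooled list. For alpha-PheRS (chrX:8145603-8145838, minus strand) the whole stretch up to the TSS of CG2129 is given, since the 2 genes start back to back.
GluProRS: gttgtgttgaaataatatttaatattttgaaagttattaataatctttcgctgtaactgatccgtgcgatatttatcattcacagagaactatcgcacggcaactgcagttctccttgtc
TrpRS: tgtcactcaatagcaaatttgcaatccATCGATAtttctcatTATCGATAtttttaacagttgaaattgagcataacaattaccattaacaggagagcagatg
AlaRS: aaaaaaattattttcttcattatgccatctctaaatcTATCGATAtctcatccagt
AspRS-m: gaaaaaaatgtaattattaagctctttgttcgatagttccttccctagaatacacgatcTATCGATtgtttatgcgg
beta-PheRS: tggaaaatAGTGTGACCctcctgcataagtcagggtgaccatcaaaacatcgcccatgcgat
IleRS: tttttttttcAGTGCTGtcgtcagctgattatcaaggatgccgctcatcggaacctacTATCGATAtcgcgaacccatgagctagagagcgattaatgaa
alpha-PheRS: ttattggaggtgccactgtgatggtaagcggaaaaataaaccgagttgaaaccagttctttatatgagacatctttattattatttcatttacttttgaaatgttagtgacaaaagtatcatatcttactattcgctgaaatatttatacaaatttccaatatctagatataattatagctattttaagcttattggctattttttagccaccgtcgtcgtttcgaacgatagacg

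CG2129-eGFP was found at the promoters of 10 of the 35 synthetase genes (28.6%, 95% exact interval 14.6 to 46.3). This interval includes the 17.3% of all protein-coding genes that were bound (2418 of 13945). The cytoplasmic enzymes made up nearly all of the 10 bound members. Of the 20 cytoplasmic genes 9 were bound (45%, 95% exact interval 23.1 to 68.5), which were GluProRS, TrpRS, GlnRS, MetRS, beta-PheRS, AsnRS, AlaRS, AspRS and ArgRS. Of the 15 mitochondrial genes 1 was bound (6.67%, interval 0.169 to 31.95), which was AspRS-m. The interval of the cytoplasmic share lies above 17.3% and that of the mitochondrial share includes it, and the 2 intervals overlap. The first of these did not hold with each peak given to the nearest gene only (30%, interval 11.9 to 54.3, beside 12.3% of all genes) or with peaks at least as strong as the median (25%, interval 8.66 to 49.1, beside 10.6%). No test of the difference between the compartments was run, because the members were chosen with earlier results of these data known and genes are not replicates. The 10 bound genes rest on 10 different peaks.

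**Figure D1:**
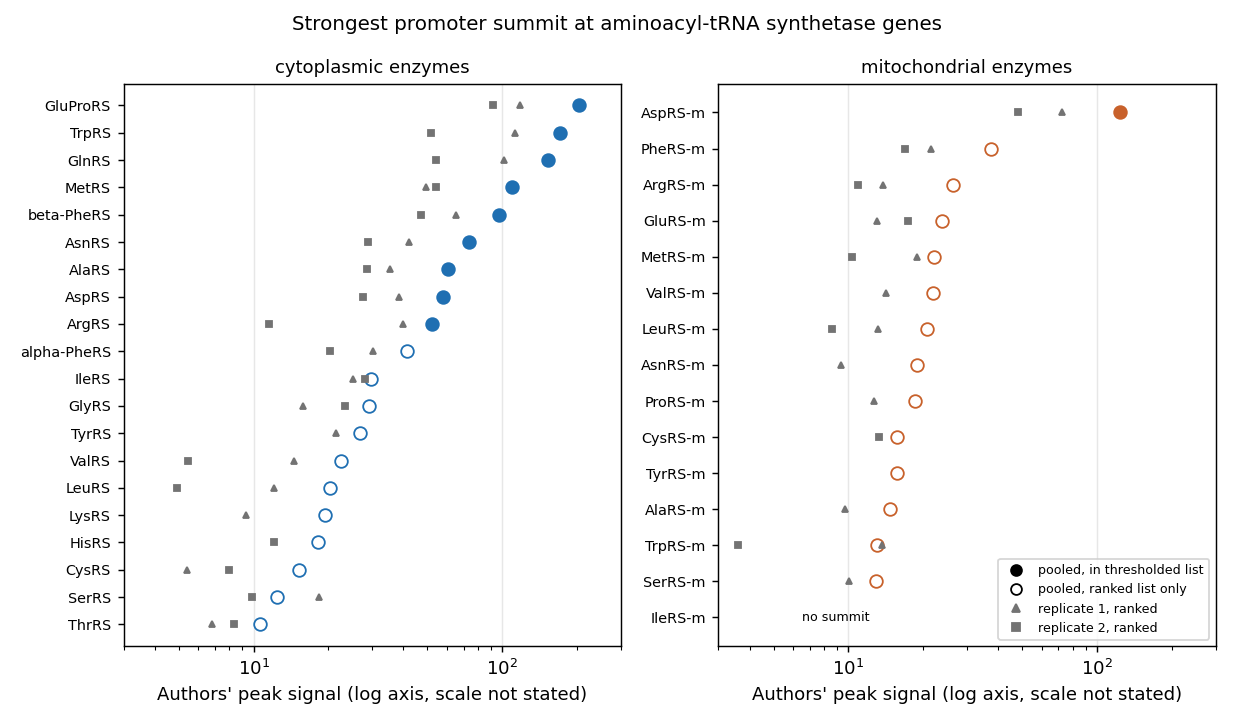
Peak signal (log axis, scale not stated) of the strongest summit within 500 bp of a TSS for each cytoplasmic (left) and mitochondrial (right) synthetase gene, in the pooled ranked list (circles, filled where the peak is in the thresholded list), replicate 1 (triangles) and replicate 2 (squares). The filled circles span 52.1 to 204 and include 1 mitochondrial gene, AspRS-m at 123.7. IleRS-m has no summit.

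The strongest summit lay at GluProRS, which encodes a single protein with both the glutamyl and the prolyl enzyme. Its peak (3R, 23958304 to 23958598) had a signal of 204 in the pooled list, 118.3 in replicate 1 and 92.3 in replicate 2, and ranked 132 of 2067, 123 of 1681 and 106 of 1347 in those thresholded lists. TrpRS, the tryptophanyl enzyme, followed with 170.7 pooled, 112.3 in replicate 1 and 52.0 in replicate 2. GlnRS, the glutaminyl enzyme, had 152.7 pooled, 101.7 and 54.0. These 3 peaks stood in the upper part of all lists, although TrpRS and GlnRS ranked lower in replicate 2 (504 and 467) than in replicate 1 (155 and 208).

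AspRS-m, which charges the mitochondrial aspartate tRNA, came next with 123.7 pooled, 72.3 in replicate 1 and 48.2 in replicate 2. MetRS, whose product charges both initiator and elongator methionine tRNA in the cytosol, had 110.0, 49.4 and 54.2. The beta subunit gene of the cytosolic phenylalanyl enzyme, beta-PheRS, had 96.8, 65.4 and 47.3. All 3 passed the threshold in both replicates' own lists. Signals of the 2 replicates need not share a scale, so their ranks were compared. MetRS ranked higher in replicate 2 in the thresholded lists (top 34.15% against 53.7%) and in the ranked lists (1.01% against 2.31%). By percentile in the ranked lists GluProRS, beta-PheRS, AsnRS, AlaRS and AspRS also stood higher in replicate 2. That list is longer (47717 peaks against 40775), and by rank number beta-PheRS, AsnRS and AspRS stood lower in it (645 against 587 for beta-PheRS). In the thresholded lists GluProRS, beta-PheRS, AsnRS, AlaRS and AspRS stood lower in replicate 2 by percentile, with AsnRS at 82.0% against 64.5%.

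The other 4 bound members lay below the median pooled signal of 77.6. AsnRS had 73.9 pooled, 42.3 in replicate 1 and 28.95 in replicate 2. AlaRS had 60.85, 35.3 and 28.7, and AspRS had 57.7, 38.5 and 27.5. These 3 were in the thresholded list of each replicate as well. ArgRS was the weakest, with 52.1 pooled, 39.9 in replicate 1 and 11.6 in replicate 2. It ranked 1165 in the thresholded list of replicate 1 and was absent from that of replicate 2, where its ranked summit had a −log10 IDR of 0.0945 against a threshold of 2. Over the bound members the median signal was 103.4, beside 91.1 over all bound protein-coding genes.

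The 2 replicates gave nearly the same set. Replicate 1 had 10 members in its thresholded list, against 14.9% of all protein-coding genes, and all 10 were those of the pooled list. Replicate 2 had 11, against 12.2% of all genes, of which 9 were in the pooled list. The other two were IleRS and GlyRS. IleRS had 28.1 in replicate 2, at a summit 9 bp from its TSS and 47 bp from the centre of the TATCGAT shown above. Its strongest summits in the pooled list (29.8) and in replicate 1 (25.2) lay elsewhere, 420 and 379 bp upstream, towards Hem, whose TSS is 470 bp away on the other strand. GlyRS had 23.35 in replicate 2, 29.0 pooled and 15.8 in replicate 1, and that replicate 2 summit lay 426 bp upstream of its TSS, near the starts of Plp and sstn. AspRS-m was the only mitochondrial member in either replicate's thresholded list.

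**Figure D2:**
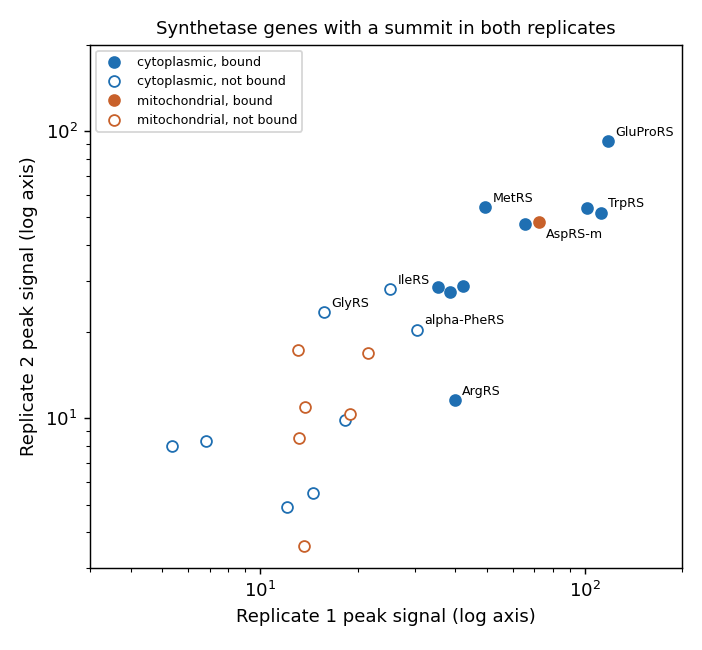
Signal of the strongest promoter summit in replicate 1 against replicate 2 (both log axes) for the 24 synthetase genes with a summit in both ranked lists, filled where the gene is bound in the pooled list. GluProRS is highest in both with 118.3 and 92.3, and ArgRS is the bound gene with the low replicate 2 signal of 11.6.

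Most of the unbound members were not empty in the ranked lists, which keep peaks far below the threshold. In the pooled ranked list 34 of the 35 members had a summit within 500 bp of a TSS, beside 60.9% of all protein-coding genes. All 20 cytoplasmic genes had such a summit, and 14 of the 15 mitochondrial genes, the exception being IleRS-m. The 11 unbound cytoplasmic genes had signals of 10.6 (ThrRS) to 41.45 (alpha-PheRS) with a median of 20.2, and the 13 unbound mitochondrial genes with a summit had 13.0 (SerRS-m) to 37.6 (PheRS-m) with a median of 18.9. The medians are close to that of all unbound protein-coding genes with a ranked summit, 17.7. No unbound member reached the 52.1 of ArgRS.

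Between the lowest bound member and the rest stood alpha-PheRS, IleRS and PheRS-m. alpha-PheRS had 41.45 pooled, 30.4 in replicate 1 and 20.3 in replicate 2, with a −log10 IDR of 1.53. PheRS-m, the single-chain mitochondrial phenylalanyl enzyme, had 37.6, 21.5 and 16.9, with 1.46. IleRS had a −log10 IDR of 1.40. A second pooled ranked list was deposited, with 47856 peaks beside 47947 and with other IDR values. MetRS-m and ProRS-m have no summit in it. In that list alpha-PheRS had 2.51 and is in the conservative thresholded list, whereas ArgRS had 0.316 and is not. PheRS-m had 1.975 there, just under the threshold of 2, and IleRS had 1.55, and neither is in the conservative list. The conservative list also holds 10 members, beside 16.8% of all genes, of which 9 are shared with the main list.

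The other unbound members had a −log10 IDR of at most 0.379 in the main pooled ranked list. GlyRS differed most between lists, with 0.031 there, 1.34 in the second pooled ranked list, 0.544 in replicate 1 and 2.58 in replicate 2. Among the cytoplasmic enzymes GlyRS had a signal of 29.0, the tyrosyl enzyme TyrRS 26.75, the valyl enzyme ValRS 22.6 and the leucyl enzyme LeuRS 20.2. LysRS (lysine) had 19.4, HisRS (histidine) 18.1, CysRS (cysteine) 15.25, SerRS (serine) 12.4 and ThrRS (threonine) 10.6. These 9 genes form a continuous low range with no gap. The mitochondrial enzymes covered the same range, with 26.45 at ArgRS-m, 23.9 at GluRS-m, 22.1 at MetRS-m, 21.9 at ValRS-m, 20.7 at LeuRS-m and 18.9 at AsnRS-m. Below these were ProRS-m with 18.5, CysRS-m with 15.7, TyrRS-m with 15.7, AlaRS-m with 14.7, TrpRS-m with 13.0 and SerRS-m with 13.0.

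In the lists of single replicates the mitochondrial genes had fewer summits of any strength. In replicate 1 19 of 20 cytoplasmic and 12 of 15 mitochondrial genes had one, and in replicate 2 18 of 20 and 8 of 15, beside 58.1% of all protein-coding genes in each. TyrRS-m and IleRS-m had none in either. Both replicates held a summit at 17 cytoplasmic and 7 mitochondrial genes, and the share of all genes with a summit in both was not counted. Ranked by signal within the pooled ranked list, with genes lacking a summit placed at 100%, the median cytoplasmic gene stood in the top 5.18% (quartiles 2.16 and 16.5), the median mitochondrial gene at 19.5% (11.2 and 34.2) and the median protein-coding gene at 49.7%. In replicate 2 the medians were 3.81% and 95.8%, and in replicate 1 4.43% and 19.6%, beside 62.5% and 60.1% for all protein-coding genes. The cytoplasmic median was thus ahead of the mitochondrial one in each list. The mitochondrial median was ahead of that of all genes in the pooled list and replicate 1, and behind it in replicate 2, where 7 of the 15 genes had no summit.

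Cytoplasmic genes were set against the mitochondrial gene for the same amino acid, with a missing summit counted as lower. The cytoplasmic gene had the higher pooled ranked signal in 11 of 15 pairs. PheRS-m was paired with both alpha-PheRS and beta-PheRS, and GluRS-m with no gene, since GluProRS was placed under proline alone. Among the 11, valine differed little (22.6 and 21.9), and IleRS-m had no summit to compare with IleRS. The widest differences were those of proline (GluProRS 204, ProRS-m 18.5), tryptophan (TrpRS 170.7, TrpRS-m 13.0) and methionine (MetRS 110.0, MetRS-m 22.1). Aspartate was the reverse, with 57.7 at AspRS and 123.7 at AspRS-m, the only amino acid for which both genes were bound. For leucine (20.2 and 20.7), cysteine (15.25 and 15.7) and serine (12.4 and 13.0) the mitochondrial gene was also the higher, by less than 1 unit of signal and with neither gene bound. In replicate 1 the cytoplasmic gene was higher in 13 of 15 pairs and in replicate 2 in 11, with 3 the other way and tyrosine without a summit at either gene. Of the 15 cytoplasmic genes whose amino acid has an RS-m gene 8 were bound, and of the 5 others (GlnRS, GlyRS, HisRS, LysRS and ThrRS) GlnRS alone.

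The compartments were set beside other genes of translation chosen by symbol. For proteins of the cytosolic ribosome 39 of 92 genes were bound (42.4%, interval 32.15 to 53.1), a share near that of the cytoplasmic synthetases. For those of the mitochondrial ribosome it was 25 of 73 (34.25%, interval 23.5 to 46.3) and for translation initiation factors 14 of 44 (31.8%, interval 18.6 to 47.6). The interval of the mitochondrial ribosomal protein genes overlaps that of the mitochondrial synthetases, 0.169 to 31.95%. Overlap of intervals does not decide whether these mitochondrial groups differ, and no test of that was run.

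**Figure D3:**
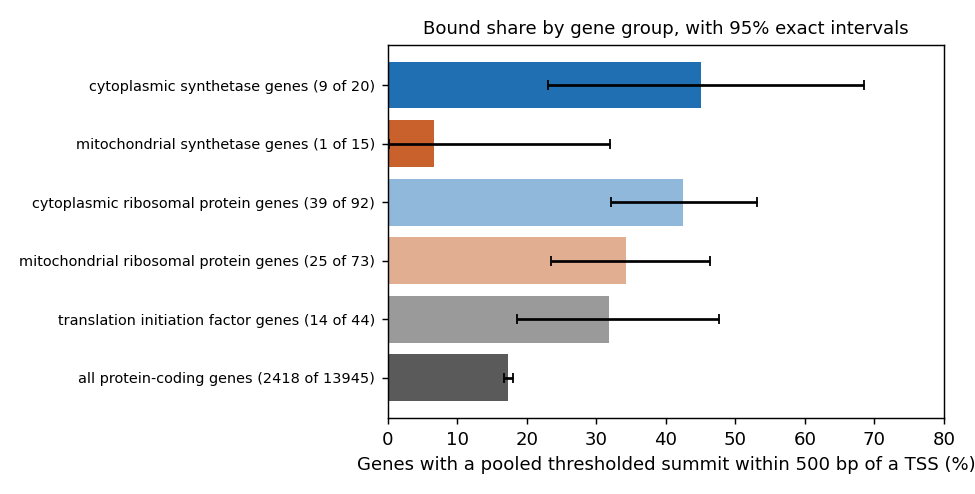
Share of genes with a pooled thresholded summit within 500 bp of a TSS, by gene group, with 95% exact Clopper-Pearson intervals as error bars and the counts beside each name. The bar of the mitochondrial synthetases, at 6.67%, is the lowest, and its interval overlaps those of the other groups except the cytoplasmic ribosomal protein genes.

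Partner genes act on either side of the enzymes. Of a list of 19 such genes 17 matched a symbol or synonym and 4 were bound, beside the 17.3% of all genes. They were eEF1gamma, a subunit of the factor that reloads the tRNA carrier eEF1alpha with GTP, with 138.2 pooled, 67.2 in replicate 1 and 62.0 in replicate 2, and GatC, a subunit of the transamidase that makes mitochondrial glutaminyl-tRNA, with 81.4, 59.3 and 30.55. RNaseZ, which trims the 3′ ends of tRNA precursors, had 63.0, 30.4 and 30.4. AIMP3, a scaffold of the multisynthetase complex, had 54.4, 38.9 and 11.3 and was absent from the thresholded list of replicate 2, as ArgRS was. The GatC peak is shared with PolG2 and Polr2C, and the RNaseZ peak with CG12909. The gene mEFTs, for the mitochondrial elongation factor Ts, was in the thresholded list of each replicate (37.55 and 44.0) but not in the pooled one, where its summit had a signal of 81.7 and a −log10 IDR of 0.494. AIMP1, AIMP2, Slimp, eEF1alpha1, eEF1alpha2, eEF1beta, eEF1delta, mEFTu1, mEFTu2, GatA, GatB and Dtd were unbound, with pooled signals of 7.76 to 28.8.

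Neither the catalytic fold nor the multisynthetase complex split the cytoplasmic enzymes cleanly. These groupings were made after the values were seen. Synthetases fall into class I and class II by the fold of the active site. With GluProRS left out because it joins an enzyme of each class, 4 of 9 class I genes were bound (ArgRS, GlnRS, MetRS and TrpRS) and 4 of 10 class II genes (AlaRS, AsnRS, AspRS and beta-PheRS). Of the 8 enzymes known from mammals to sit in the multisynthetase complex 5 were bound (ArgRS, AspRS, GlnRS, GluProRS and MetRS), beside 4 of the 12 other cytoplasmic genes. IleRS, LeuRS and LysRS of that complex were unbound. The 2 subunits of the cytosolic phenylalanyl enzyme fell on either side of the threshold, beta-PheRS with 96.8 and alpha-PheRS with 41.45.

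The alpha-PheRS promoter is also that of the gene for the tagged protein. alpha-PheRS and CG2129 are transcribed away from each other on the X, with TSSs 237 bp apart. The stronger of the 2 pooled ranked summits near the alpha-PheRS TSS, at 8145626, lay 24 bp upstream of it and 213 bp from the TSS of CG2129. The strongest summits of the replicates lay 118 bp upstream (replicate 1) and 41 bp downstream (replicate 2) of the alpha-PheRS TSS. The pooled peak is in the conservative list and not in the main one. No copy of the 4 motifs is in the sequence between the starts printed above. The labels do not describe how the transgene was built, and whether any reads there come from it was not tested.

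Summits of bound members lay close to the TSS and mostly upstream. The distance ran from 2 bp (beta-PheRS) to 285 bp (AsnRS) with a median of 66 bp, and 9 of the 10 were upstream, AspRS being the exception at 19 bp downstream of a TSS. Over all bound protein-coding genes the median was 76 bp and 84.7% were upstream. Of the unbound cytoplasmic genes 9 of 11 had their pooled ranked summit upstream, whereas 9 of the 13 mitochondrial ones had it downstream, beside 52.05% upstream for all unbound genes with a ranked summit. In the replicates the mitochondrial counts were 6 of 11 downstream in replicate 1 and 3 of 7 in replicate 2, so that pattern was not seen in both. The cytoplasmic counts were 7 of 10 upstream in replicate 1 and 5 of 9 (55.6%) in replicate 2, the last near the 52.05% of all such genes.

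**Figure D4:**
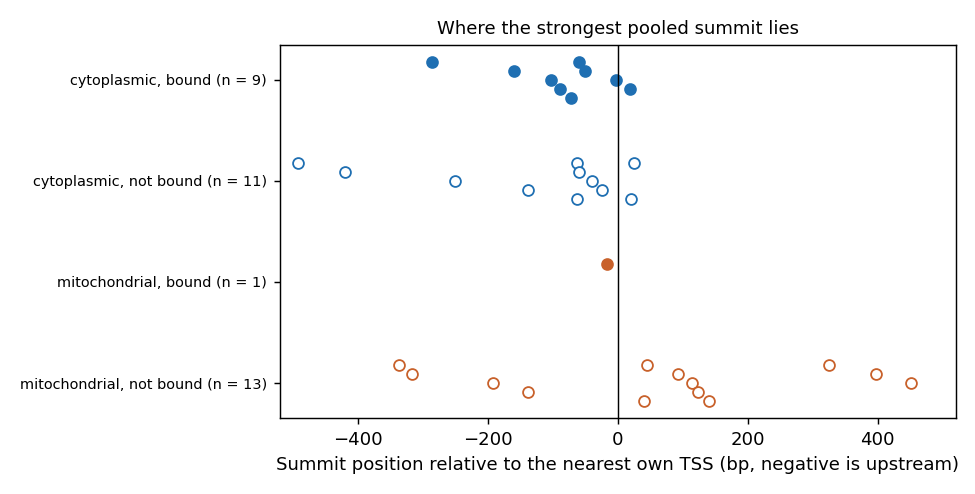
Position of the strongest pooled ranked summit relative to the nearest TSS of the same gene, in bp with upstream negative, for bound (filled) and unbound (open) members of each compartment. Points are spread vertically to be seen. Bound members lie between 285 bp upstream and 19 bp downstream.

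Many of these promoters serve a neighbour as well. Of the 35 members 22 have a divergent neighbour, that is, another gene for a protein that starts at most 500 bp upstream and runs the other way: 15 of the 20 cytoplasmic genes and 7 of the 15 mitochondrial ones. Over all protein-coding genes 3815 of 13945 have such a neighbour. Such divergent genes were bound at 37.1% in all, and genes without a divergent neighbour at 9.88%. Of the divergent cytoplasmic genes 7 of 15 were bound (46.7%, interval 21.3 to 73.4), which includes 37.1%. Of the divergent mitochondrial genes 0 of 7 were bound (upper bound of the interval 41.0%), also including 37.1%. Among genes without such a neighbour 2 of 5 cytoplasmic genes (AlaRS and beta-PheRS) and 1 of 8 mitochondrial genes (AspRS-m) were bound. The cytoplasmic enzymes had both the larger share of divergent genes and the larger bound share. Whether divergence has a part in the difference was not tested.

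At 7 of the 10 bound members the peak was shared with another protein-coding gene. Sharing is common among bound genes in general, since the strongest peaks of all 2418 bound protein-coding genes are 1642 distinct peaks. The share of all bound genes with a shared peak was not counted. The neighbour's TSS was the nearer at 3 of the 7 members. The GlnRS summit lay 89 bp from its own TSS and 34 bp from that of RIOK2, a kinase of small ribosomal subunit maturation. The TrpRS summit lay 72 bp from its own TSS and 43 bp from that of Vps16A, a vesicle fusion protein, and the AsnRS summit 285 bp from its own and 84 bp from that of DCTN6-p27, a dynactin subunit. The member's TSS was the nearer at GluProRS (60 bp, with AP-1sigma at 200 bp), MetRS (103 bp, with CG15084 at 142 bp), ArgRS (160 bp, with CG8578 at 171 bp) and AspRS (19 bp, with Nmda1 at 73 bp). AlaRS, AspRS-m and beta-PheRS had their peaks to themselves. Given to the nearest gene only, the peaks left 6 cytoplasmic genes and AspRS-m bound.

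Of the 4 motifs searched, TATCGAT and the DRE were found at the most summits in all. Within 100 bp of the summit TATCGATA was found at 3 of the 10 bound members, TrpRS, AlaRS and AspRS, beside 32.0% of all 2066 summits on the chromosome arms. TATCGAT, which is part of every TATCGATA, was found at these 3 and at AspRS-m and MetRS, beside 54.6% of all summits. The centre of the nearest copy lay 3.5 bp from the summit at TrpRS, 2 bp at AspRS-m for the 7-base form, about 34 bp at AlaRS and AspRS and 65 bp at MetRS. AGTGTGACC was at 3 of 10, AspRS-m, beta-PheRS and GlnRS, beside 5.28% of all summits, and its centre was 26, 48 and 91 bp from the summit. CAGCNCT was at none, beside 17.0%. ArgRS, AsnRS and GluProRS, the last with the strongest peak of the family, had none of the 4 within 100 bp of the summit. ArgRS does have TATCGATA, and AsnRS CAGCNCT, within 100 bp of a TSS.

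The same motifs were counted within 100 bp of any TSS of each gene, which does not depend on a peak. TATCGATA was there in 5 of 20 cytoplasmic and 1 of 15 mitochondrial genes, beside 8.49% of all protein-coding genes. Of the 9 bound cytoplasmic genes 4 had it (TrpRS, AlaRS, AspRS and ArgRS), and of the 11 unbound 1, IleRS. Over all protein-coding genes it was at 32.0% of the bound and 3.57% of the unbound. The mitochondrial gene with it was PheRS-m, which was unbound but had the highest signal of the unbound mitochondrial genes, with the motif centre 195 bp from its pooled and replicate 2 summits and 36 bp from that of replicate 1. TATCGAT was at 6 of 20 cytoplasmic and 3 of 15 mitochondrial genes, AspRS-m, PheRS-m and ValRS-m, beside 16.6% of all genes. AGTGTGACC was at 2 of 20 and 3 of 15, beside 5.85%. CAGCNCT stood at 6 of the 11 unbound and 1 of the 9 bound cytoplasmic genes and at 3 of the 15 mitochondrial genes, beside 15.7% of all genes. Over all protein-coding genes it was at 14.1% of the unbound and 23.2% of the bound, the opposite order.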

How the data were processed

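ChIP-seq peaks of CG2129-eGFP from 2 biological replicates were used as deposited. Per the labels and the readme text, the lists are on dm6, were made for each replicate and for both pooled, and are either ranked or thresholded by IDR. For the aligner, the peak caller, their versions and the read depth the labels and readme text give nothing. A control named in the labels was not analysed here. The deposited peak signal, whose scale is not stated, was used as written. The deposited score, capped at 1000, was not used further. The −log10 IDR is that of the authors' ranked lists, and every pooled thresholded peak was at 2.001 or above. In each ranked list 8 further columns of values that nothing ties to a sample were not used. The main pooled ranked list is the one that holds all 2067 thresholded peaks.

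Genes and TSSs were those of Ensembl release 115 on BDGP 6.54, limited to genes that code for protein on the 6 main chromosome arms. Arm coordinates are those of dm6, and no peak ran past an arm's end in the NCBI copy of Release 6. For each gene the strongest summit within 500 bp of any TSS was taken in each list. By rule, every bound member is named with its pooled and replicate values and every unbound member with its ranked summit, and genes sharing a member's peak are named as neighbours. The grouping by class and by complex was made after the values were seen. The members, partner list, motifs and alternatives were chosen with earlier results of these data known, so no test was run, shares carry 95% exact Clopper-Pearson intervals that cover counting error only, and neighbouring genes can share a peak. Sequences on arm 2R are not reported here. Python 3.11.15, pandas 2.3.3, numpy 2.4.6 and scipy 1.17.1 were used, and the joins were tested on simulated data.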

Additional observations from a re-analysis of the deposited data

How the results depend on the processing

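Of 38 alternatives 30 left a result within its limit. That limit was 1.5 times for counts, the exact interval for shares and the SD between the replicates for medians. Some limits were wide, with intervals of 23.1 to 68.5% (cytoplasmic share) and 0.169 to 31.95% (mitochondrial share). The SD for the mitochondrial median came from replicates at 19.6% and 95.8%. Staying within such limits says little about stability. The members bound numbered 10 in the main list, 9 within 200 bp (AsnRS lost), 10 within 1000 bp, 9 among pooled peaks overlapping a peak of each replicate by 50% (ArgRS lost), 7 with each peak given to the nearest gene and 6 when only the stronger 50% of peaks were kept, so that AlaRS, ArgRS, AsnRS and AspRS fell out. All protein-coding genes gave 15% within 200 bp, 18.9% within 1000 bp, 10.6% among peaks of each replicate, 12.3% by nearest gene and 10.6% in the stronger 50%. The cytoplasmic share was 30% by nearest gene (interval 11.9 to 54.3) and 25% in the stronger 50% (8.66 to 49.1), and both intervals include the share of all genes, unlike that in the main list. With replicate 2 or replicate 1 alone the count was 11 or 10, the cytoplasmic share 50% or 45%, and the mitochondrial share 6.67% in both. Over all these alternatives the cytoplasmic share ran from 25% to 53.3%, the last for amino acids with an RS-m gene, and the mitochondrial share was 6.67% in each, always AspRS-m. The cytoplasmic median rank was 5.18% in the main list, 7.45% within 200 bp, 3.75% within 1000 bp and 3.81% to 4.43% in single replicates. The mitochondrial one was 19.5%, 36.9% within 200 bp and 31.6% in the other pooled ranked list, and in single replicates it ran from 19.6% to 95.8%, since 7 of the 15 genes had no summit in replicate 2. Why these values moved was otherwise not tested. TATCGATA was near 3 bound summits, and near 5 with windows of 150 bp, and TATCGAT was near 5. The share of all summits with TATCGATA in windows of 150 bp was not counted. With 15 mitochondrial genes, the interval around 1 bound gene reaches 31.95%, and read depth is not known.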
